A study of Mus musculus with 11 samples.

Results

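Aminoacyl-tRNA synthetases are the enzymes that join each amino acid to its transfer RNA. The 36 genes described here were chosen by symbol from a table of 48709 genes: 20 encode synthetases of the cytosol, and 16, with symbols that end in 2, encode synthetases of mitochondria. The choice used no measured value, and all 36 genes passed the filter on low counts. The RNA was sequenced from muscle stem cells, the Pax7-expressing cells that lie quiescent beside the muscle fibre and repair it after injury.

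All groups came from pectoral, forelimb and hindlimb muscles of Tg:Pax7-nGFP mice on the C57BL/6 strain, in which a transgene driven by Pax7 labels the nuclei of these cells with a green fluorescent protein and allows them to be sorted. T0 cells were fixed while still within whole muscle, with 0.5% paraformaldehyde at 4°C for 1 h. T3 cells were first isolated and sorted and only then fixed, with 0.5% paraformaldehyde on ice for 30 min. T5 cells were fixed as T3 cells were, but with 2 h more at 37°C. The labels' protocol puts those 2 h on the dissected muscles, ahead of the isolation, whereas the series description puts them after it, so the order is not settled. T3 and T0 differ in both isolation and fixation, and the contributions of these cannot be told apart. The labels give no age or sex and do not say that each library stands for its own animal, so the p-values refer to differences among these particular samples, part of which may be technical.

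A cell uses separate sets of synthetases in its cytosol and in its mitochondria, although all of them are encoded in the nucleus. The cytosolic enzymes feed the ribosomes that read nuclear messages. Several of them (those for aspartate, glutamate and proline, isoleucine, lysine, leucine, methionine, glutamine and arginine) sit in a large multi-synthetase complex held together by scaffold proteins. The mitochondrial enzymes are imported and serve the few proteins encoded by mitochondrial DNA. Gars and Kars, for glycine and lysine, encode both forms and were counted as cytosolic. When charged transfer RNA runs short, the transcription factor ATF4 is made and activates genes of amino acid supply, several cytosolic synthetase genes among them, in part through a composite C/EBP-ATF element in their promoters.

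Library totals ran from 49078859 to 102347035 counts over 11 libraries. The 4 T5 libraries were joined by the letter in their names into 2 samples, so n = 3 for T0, n = 4 for T3 and n = 2 for T5. A chi-square per gene between T5 libraries was 71.7 and 78.2 for the pairs of the same letter and 12.6, 58.9, 96.7 and 109 for the pairs of different letters, so libraries of the same letter were not the most alike, and no 2 libraries were identical. T0 replicate 3 stood apart, with the lowest T0 value for 35 of the 36 synthetase genes. The marker Pax7 was the highest of 10 muscle stem cell markers in T0, at 3137 to 4440 CPM (counts scaled to library size), and stood at 249 to 400 CPM in T3. Of those 10 markers 5 were called lower in T3 and 2 higher, Sdc4 (2.64 on the log2 scale) and Vcam1 (0.60), and 3 were not called (Myf5, Itga7 and Chrdl2).

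Relative to the rest of the RNA, isolated cells had more of most cytosolic synthetases and less of most mitochondrial ones than cells fixed within the muscle. Of the 20 cytosolic genes 13 rose from T0 to T3, 2 fell and 5 were not called by edgeR's quasi-likelihood test at an adjusted p under 0.05. Of the 16 mitochondrial genes 1 rose, 13 fell and 2 were not called. Among all 31999 genes tested 37.9% were called, 15.0% higher and 22.9% lower, and among protein-coding genes 17.6% and 26.8%. The median log2 fold change was 1.03 over the cytosolic genes and −1.08 over the mitochondrial genes, against 0.05 over all genes tested. With upper quartile scaling the median of all genes moved to 0.32 and the calls over all genes shifted from 4807 higher and 7332 lower to 7159 higher and 5798 lower. The cytosolic median was then 1.36, with 15 genes higher and 1 lower, and the mitochondrial median was −0.75, with 2 higher and 11 lower. Without T0 replicate 3 the counts were 12 higher and 3 lower for the cytosolic genes and 1 and 13 for the mitochondrial genes, with medians of 0.80 and −1.27. In these bulk samples fewer cells of a type and less RNA per cell cannot be told apart.

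**Figure D1:**
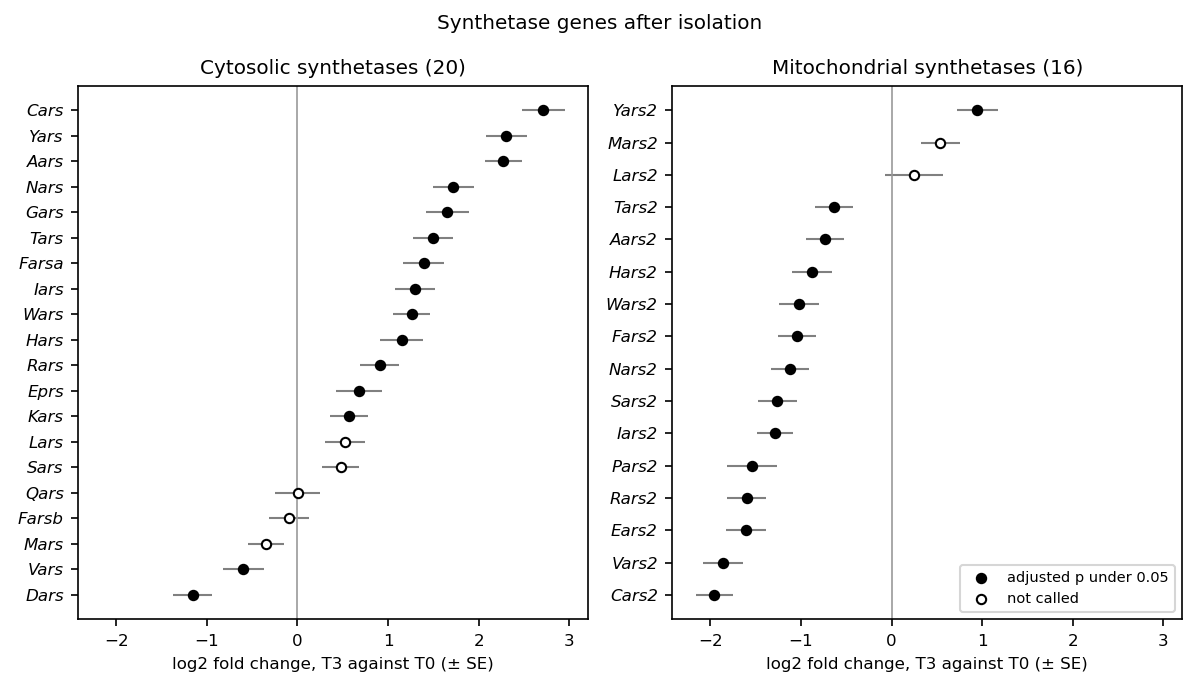
Log2 fold change of T3 against T0 (x axis, ± SE) for the 20 cytosolic and the 16 mitochondrial synthetase genes (y axis), with filled points for genes called at an adjusted p under 0.05. Most cytosolic genes lie to the right of 0, up to 2.72 for Cars, and most mitochondrial genes to the left, down to −1.96 for Cars2.

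The promoters of some of the cytosolic genes that rose hold the core of the C/EBP-ATF element, spelled TGATGNAA here and read on either strand. RefSeq promoter windows of 300 bases, 250 before and 50 after the start on build GRCm38.p6, matched 27 of the 36 genes by symbol. The 9 genes without a window were Cars, Hars, Lars, Nars, Rars, Vars, Wars, Hars2 and Pars2, and the element was not sought there. The start used lay up to 5229 bases inside the annotated gene (Tars2), and 698 bases inside it for Aars. Of the 13 cytosolic genes with a window 5 held the element (Aars, Gars, Iars, Tars and Yars), and of the 14 mitochondrial genes 0. Among all 32851 windows the share was 3.97%, counted by window and not by gene (Aars2 had 2 windows). Of the 8 cytosolic genes that were called higher in T3 and have a window, these 5 hold the element, with log2 fold changes of 1.30 to 2.31, and 3 (Eprs, Farsa and Kars) lack it, with 0.57 to 1.39. A site of each gene is shown, because these are the letters the genes share, within 30 bases, 5′ to 3′ on the strand of the gene, with the element, or its reverse complement, in capitals and positions counted from the start as +1 (the base before it is −1).
Aars, 10 to 17, chr8:111033840-111033869 (+): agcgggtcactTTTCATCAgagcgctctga
Gars, −30 to −23, chr6:55037960-55037989 (+): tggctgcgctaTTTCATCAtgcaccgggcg
Iars, 8 to 15, chr13:49682126-49682155 (+): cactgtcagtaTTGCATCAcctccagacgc
Tars, −15 to −8, chr15:11399655-11399684 (−): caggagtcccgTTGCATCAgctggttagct
Yars, 4 to 11, chr4:129189895-129189924 (+): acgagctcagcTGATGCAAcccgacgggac
In Yars the element ran on the strand of the gene, while in the other 4 genes it ran on the opposite strand. In Gars and Tars it lay within the last 30 bases before the start, and the 100 bases just before the start are given for both, on the strand of the gene.
Gars, chr6:55037901-55038000 (+): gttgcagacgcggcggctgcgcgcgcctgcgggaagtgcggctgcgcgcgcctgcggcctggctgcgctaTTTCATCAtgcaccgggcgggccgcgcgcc
Tars, chr15:11399659-11399758 (−): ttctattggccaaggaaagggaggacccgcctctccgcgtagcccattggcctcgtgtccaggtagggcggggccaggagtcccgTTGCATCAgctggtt
A match is a description of these letters and not evidence of binding. The palindrome CACGTG, the E-box core bound by MYC and related factors, was in the windows of 4 cytosolic genes (Aars, Farsb, Iars and Tars) and 1 mitochondrial gene (Ears2), against 7.15% of all windows. The 2 motifs share no overlapping bases at these sites. Farsb, with CACGTG alone, was not called in T3, and Ears2, also with CACGTG alone, was called lower.

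Among the 12 cytosolic synthetases outside the multi-synthetase complex 9 rose, 1 fell and 2 were not called, with a median log2 fold change of 1.44. The largest change was that of Cars, the synthetase for cysteine (chromosome 7, 143557230 to 143600090, minus strand, GRCm38). Cars stood at 42.2, 40.9 and 26.4 CPM in the T0 samples and at 249, 233, 202 and 276 CPM in the T3 samples. The T3 level was 6.57-fold that of T0 (log2 fold change 2.72 ± 0.24 SE, adjusted p = 6.73e-09), and the lowest T3 sample was well above the highest T0 sample. Yars charges tyrosine transfer RNA, and its protein also has signalling fragments outside the cell. It stood at 40.0, 41.5 and 27.3 CPM in T0 and at 191, 169, 150 and 209 CPM in T3, a log2 fold change of 2.31 ± 0.23 (adjusted p = 3.39e-08). Aars, for alanine (chromosome 8, 111033144 to 111057664, plus strand), had 27.9, 26.6 and 23.8 CPM in T0 and 132, 123, 108 and 142 CPM in T3, a change of 2.27 ± 0.21 (adjusted p = 1.37e-08). Exosc6 lies within the span of Aars and had means of 1.57 CPM in T0 and 8.55 CPM in T3. In these 3 genes T0 replicate 3 was lowest and T3 replicate 3 was the lowest of its group, but the groups did not come near each other.

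Nars, Gars, Tars and Wars, which charge asparagine, glycine, threonine and tryptophan transfer RNA, formed a middle range of change. Nars measured 46.7, 44.9 and 27.7 CPM in T0 and 123, 147, 106 and 149 CPM in T3, with a change of 1.72 ± 0.23 in log2 (adjusted p = 2e-06). Gars measured 55.7, 52.2 and 31.4 CPM against 160, 130, 115 and 179 CPM, with a change of 1.65 ± 0.24 (adjusted p = 5.41e-06). Tars, at 43.4, 38.3 and 25.8 CPM in T0 and 102, 98.1, 85.3 and 118 CPM in T3, changed by 1.49 ± 0.22 (adjusted p = 7.33e-06). All T3 samples lay above all T0 samples in each of them. Wars, a gene that interferon also induces, went from 36.1, 34.1 and 26.5 CPM to 67.8, 71.4, 88.3 and 81.3 CPM, a log2 fold change of 1.26 ± 0.20 (adjusted p = 2.29e-05). Hars, for histidine, went from 27.5, 26.9 and 13.9 CPM to 44.4, 62.9, 40.1 and 54.6 CPM, a change of 1.15 ± 0.24 (adjusted p = 0.000449). Hars shares its promoter region head to head with Hars2, its mitochondrial counterpart, and the 2 annotated genes overlap over 1.19% of the Hars span. The 2 genes moved in opposite directions, since Hars2 fell by 0.88 ± 0.22 on the log2 scale (adjusted p = 0.00277).

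Phenylalanyl-tRNA synthetase is built from 2 kinds of subunit, 1 of which was called and 1 not. Farsa, the alpha subunit, had 24.2, 25.2 and 14.0 CPM in T0 and 49.5, 64.3, 50.3 and 57.7 CPM in T3, a log2 fold change of 1.39 ± 0.22 (adjusted p = 2.31e-05). Farsb, the beta subunit, had 70.2, 66.7 and 40.7 CPM in T0 and 63.2, 47.0, 46.2 and 65.8 CPM in T3, a log2 fold change of −0.09 ± 0.22 (adjusted p = 0.787). No test compared the 2 subunits with each other. The T0 and T3 ranges of Farsb overlapped, and without T0 replicate 1 its log2 fold change was 0.05. Sars, for serine, ranged from 25.4 to 40.4 CPM in T0 and from 45.4 to 53.6 CPM in T3 and was not called (log2 fold change 0.48, adjusted p = 0.0747), although the 2 groups did not overlap. Vars, for valine, was the gene outside the complex that was called lower. It had 56.9, 56.3 and 28.6 CPM in T0 and 25.3, 36.4, 32.9 and 30.1 CPM in T3, with a change of −0.60 ± 0.23 in log2 (adjusted p = 0.0404). T0 replicate 3 lay inside the T3 range of Vars, and the call was lost in 12 of 16 alternative analyses.

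Calls were mixed among the 8 synthetases of the complex. In T3, 4 genes rose (Iars, Rars, Eprs and Kars), 1 fell (Dars) and 3 were not called (Lars, Qars and Mars), with a median log2 fold change of 0.55. Iars, for isoleucine, rose most, from 93.7, 109 and 66.9 CPM in T0 to 222, 226, 181 and 255 CPM in T3, a change of 1.30 ± 0.22 (adjusted p = 4.13e-05). Rars, for arginine, rose by 0.91 ± 0.21, with every T3 sample (50.8 to 69.9 CPM) above every T0 sample (23.1 to 39.4 CPM). Eprs, which carries the glutamate and proline enzymes in 1 protein, stood at 94.1 to 214 CPM in T0 and 221 to 314 CPM in T3 (log2 fold change 0.68, adjusted p = 0.0359). Kars, for lysine, stood at 24.3 to 39.1 CPM and 43.4 to 58.8 CPM (0.57, adjusted p = 0.0335). The groups did not overlap in Eprs and Kars, yet each call was lost in 6 of 16 alternative analyses, with an adjusted p of up to 0.0926 for Eprs and 0.114 for Kars. Both were lost with relative log expression factors, without T3 replicate 2 (adjusted p = 0.0703 and 0.114) and without T3 replicate 4.

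Dars, for aspartate (chromosome 1, 128363707 to 128417368, minus strand), had the largest fall among the cytosolic genes, against the direction of most of them. It had 132, 140 and 84.0 CPM in T0 and 51.1, 51.6, 43.9 and 66.8 CPM in T3, a log2 fold change of −1.16 ± 0.21 (adjusted p = 0.000123). Every T3 sample was below every T0 sample, and T0 replicate 3 was again the lowest of T0. Qars, for glutamine, had 42.0, 35.5 and 19.3 CPM in T0 and 22.1, 43.4, 32.04 and 31.7 CPM in T3, a log2 fold change of 0.00 ± 0.25 (adjusted p = 0.997). Mars, for methionine and so for the start of every protein chain, had 34.5, 32.8 and 22.6 CPM in T0 and 21.4, 21.6, 25.1 and 25.7 CPM in T3, with a change of −0.35 ± 0.20 in log2 (adjusted p = 0.189). In both genes T0 replicate 3 lay among or below the T3 samples, and without that library Mars was called lower (adjusted p = 0.00496). Lars, for leucine and known as a leucine sensor of the growth pathway mTORC1, had 46.3 to 80.1 CPM in T0 and 80.3 to 114 CPM in T3 and was not called (0.52 ± 0.22, adjusted p = 0.0678).

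Over the 20 cytosolic genes the T3 samples all lay above the T0 samples in 15, all below in 1 and overlapped in 4. For all genes tested these shares were 16.2% above and 22.0% below. Of the 16 mitochondrial genes 2 lay above, 11 below and 3 overlapped.

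**Figure D2:**
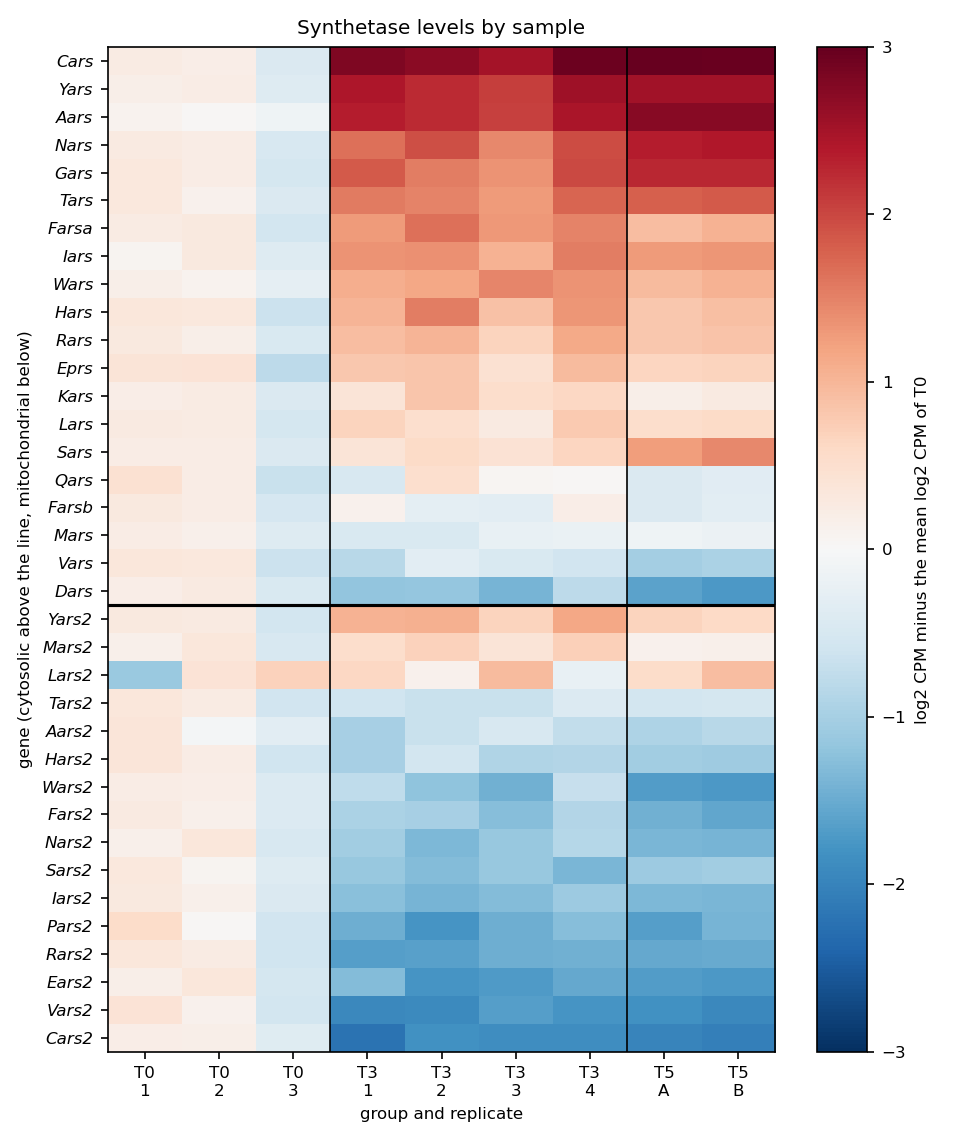
Log2 CPM minus the mean log2 CPM of T0 (colour scale) in the 36 synthetase genes (rows, cytosolic above the thick line) and the 9 samples (columns, by group and replicate). Red fills the T3 and T5 columns of most cytosolic genes and blue those of most mitochondrial genes, while T0 replicate 3 is paler or bluer than the other T0 samples in 35 of 36 genes.

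Among the mitochondrial synthetases the largest fall was that of Cars2, the counterpart of the cytosolic gene that rose most (chromosome 8, 11513977 to 11550783, minus strand). Cars2 stood at 30.9, 30.4 and 21.0 CPM in T0 and at 5.78, 7.65, 7.39 and 7.40 CPM in T3. The log2 fold change was −1.96 ± 0.21 (adjusted p = 8.01e-08), and T3 was at 0.257 of the T0 level. Vars2, for valine (chromosome 17, 35655634 to 35667592, minus strand), fell from 17.3, 14.0 and 8.85 CPM to 3.36, 3.44, 4.12 and 3.80 CPM, a change of −1.86 ± 0.22 (adjusted p = 5.38e-07). Its value is less certain than that of a gene without overlap, because the antisense gene Gm20483 covers 39.6% of its span and fell too (−1.80). Ears2 charges glutamate and also loads glutamate on the mitochondrial glutamine transfer RNA, which other enzymes then convert. It fell from 23.9, 26.5 and 14.6 CPM to 8.56, 6.19, 6.43 and 7.25 CPM (−1.61 ± 0.22, adjusted p = 2.8e-06). Rars2, whose loss causes a brain malformation in people, fell from 45.7, 42.4 and 23.8 CPM to 11.5, 11.6, 13.0 and 13.1 CPM (−1.60 ± 0.22, adjusted p = 2.52e-06). In these 4 genes the T3 samples lay close together and below every T0 sample, while T0 replicate 3 was the lowest of T0.

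Pars2, for proline, was the least abundant of the 36 genes in each sample group. It had 3.66, 2.56 and 1.66 CPM in T0 and 0.908, 0.737, 0.910 and 1.03 CPM in T3, a log2 fold change of −1.54 ± 0.27 (adjusted p = 7.51e-05). Iars2, for isoleucine, went from 80.1, 72.4 and 48.2 CPM to 27.3, 25.1, 26.6 and 30.5 CPM (−1.29 ± 0.20, adjusted p = 1.71e-05). The neighbouring gene Rab3gap2, which overlaps 4.55% of the Iars2 span on the other strand, rose by 0.90 in the same comparison. Exons of overlapping genes share 24.2% of the exon bases of Iars2, so its value is less certain too. Sars2, for serine, went from 7.99, 6.82 and 4.94 CPM to 2.93, 2.61, 2.91 and 2.51 CPM (−1.26 ± 0.22, adjusted p = 4.72e-05). Nars2, for asparagine, went from 44.7, 50.3 and 28.5 CPM to 19.5, 15.7, 18.3 and 22.2 CPM (−1.12 ± 0.21, adjusted p = 0.000157). All 4 had no T3 sample within the T0 range.

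Fars2, for phenylalanine, had the highest CPM of the mitochondrial genes after Lars2 in each group. Its 257, 237 and 163 CPM in T0 became 112, 108, 88.8 and 116 CPM in T3 (−1.04 ± 0.21, adjusted p = 0.00025). Fars2 is also the longest of the 36, with a span of 608.869 kb, and the counts include reads from introns. Wars2, for tryptophan, had 84.5, 83.5 and 54.8 CPM in T0 and 42.9, 31.4, 26.8 and 45.3 CPM in T3 (−1.02 ± 0.22, adjusted p = 0.000605), with no overlap. Hars2 had 11.2 to 22.2 CPM in T0 and 8.56 to 11.6 CPM in T3, and Aars2 had 7.20 to 11.6 CPM and 4.52 to 6.41 CPM (−0.74, adjusted p = 0.00766). Tars2, for threonine, was called with the largest adjusted p among the genes that fell. It had 45.5, 42.8 and 24.1 CPM in T0 and 23.8, 22.7, 22.8 and 27.1 CPM in T3 (−0.64 ± 0.21, adjusted p = 0.021), and T0 replicate 3 lay within the T3 range. The call of Tars2 was lost in 6 of 16 alternative analyses, with an adjusted p of up to 0.119, and that of Aars2 in 2 of 16.

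The other 3 mitochondrial genes were not called lower. Yars2, for tyrosine (chromosome 16, 16302965 to 16309640, plus strand), rose from 7.38, 7.25 and 4.15 CPM to 12.4, 12.6, 9.64 and 13.6 CPM, a log2 fold change of 0.95 ± 0.23 (adjusted p = 0.0017), and every T3 sample was above every T0 sample. Mars2, for methionine, had 9.61, 11.0 and 6.20 CPM in T0 and 12.4, 13.9, 11.3 and 14.3 CPM in T3 and was not called (0.54 ± 0.22, adjusted p = 0.0537), although the groups did not overlap. Lars2, for leucine, had 117, 339 and 408 CPM in T0 and 387, 276, 488 and 218 CPM in T3, and its groups overlapped (0.25 ± 0.32, adjusted p = 0.599). T0 replicate 1 alone was low for Lars2, the opposite of the other genes, and without it the log2 fold change was −0.13. The share of counts at 357 ribosomal RNA loci was 4.14, 12.5 and 18.3% in the T0 libraries and 9.61, 11.0, 12.6 and 6.45% in T3, and it too was lowest in T0 replicate 1 and in T3 replicate 4. Over the 11 libraries the Lars2 CPM and that share had a Pearson correlation of 0.85. The part of ribosomal RNA reads in the Lars2 value was not tested. The mitochondrial genes were therefore summed without Lars2.

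**Figure D3:**
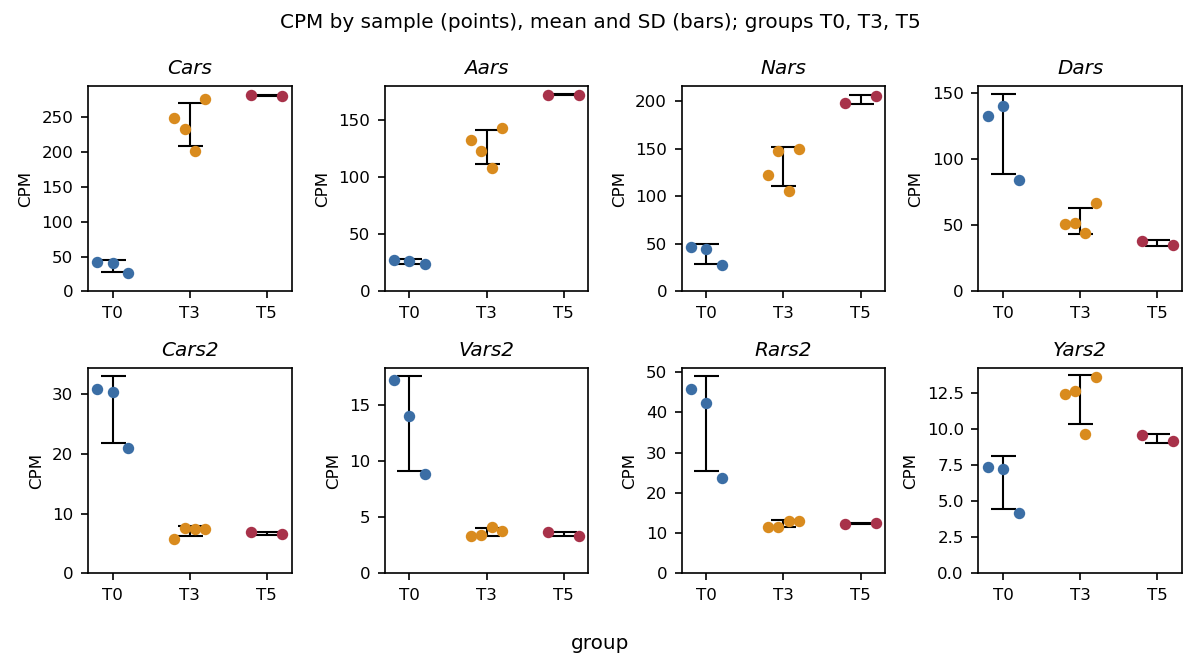
CPM (y axis, from 0) of 4 cytosolic genes (top) and 4 mitochondrial genes (bottom) in each sample of T0, T3 and T5 (x axis), with points for samples and bars for mean ± SD. Cars, Aars and Nars rise from T0 to T3 and Cars2, Vars2 and Rars2 fall, while Dars and Yars2 run against their classes.

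The summed level of the 20 cytosolic genes was 1183, 1179 and 692 CPM in T0 and 1750 to 2344 CPM in T3. That of the 15 mitochondrial genes without Lars2 was 692, 656 and 422 CPM in T0 and 255 to 319 CPM in T3. T0 replicate 3 was low in both sums but not in their ratio. The ratio was 1.71, 1.80 and 1.64 in T0, 6.97, 7.46, 6.87 and 7.34 in T3, and 9.53 and 10.1 in T5, so the 3 groups did not overlap. With Lars2 included the summed mitochondrial level was 809 to 995 CPM in T0 and 538 to 742 CPM in T3, and the ratio was 1.46, 1.19 and 0.834 in T0, 3.02, 3.76, 2.36 and 4.36 in T3, and 3.68 and 3.22 in T5. The T0 ratios were then still below those of T3, but T5 lay within the T3 range. Per kb of exon the median cytosolic gene had a level of 8.94 CPM per kb in T0 and 17.7 in T3, and the median mitochondrial gene 4.19 and 2.49. On that scale the highest cytosolic level was that of Dars in T0 (27.3 CPM per kb) and of Gars in T3 (46.8). The counts also hold intronic reads, so division by exon length does not make genes fully comparable.

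The spans of the genes were alike in both classes, with medians of 25.3 kb (cytosolic) and 25.1 kb (mitochondrial). Across quartiles of span the share of protein-coding genes called higher in T3 was 15.1 to 18.7% and called lower 22.5 to 28.6%. For 19 of the 36 genes another annotated gene overlaps the span, and for 13 of them exons overlap. Of 1921 genes that lie inside a gene on the other strand, with a mean count of at least 50, the host had at least as high a count in 1914, so the counts hold intronic reads and both strands. Overlapped genes are therefore less certain, and pre-mRNA and mature RNA cannot be separated.

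Comparing the cytosolic and mitochondrial synthetase for the same amino acid within each sample removes differences of scale between samples. There are 17 such pairs among the 36 genes, with Eprs set against both Ears2 and Pars2 and both Farsa and Farsb set against Fars2. In 15 of them every T3 sample had a higher ratio than every T0 sample. The difference in mean log2 ratio had a median of 2.24 over the pairs. For cysteine the log2 ratio of Cars to Cars2 was 0.45, 0.43 and 0.33 in T0 and 5.43, 4.92, 4.77 and 5.22 in T3, a difference of 4.68. For asparagine the ratio of Nars to Nars2 went from 0.06, −0.17 and −0.04 to 2.65, 3.22, 2.53 and 2.74, a difference of 2.83, so that 2 RNAs at near equal counts came apart. The smallest difference among the 15 was 0.95 for Farsb and Fars2. An exact two-sided permutation test of 3 against 4 samples cannot give a p below 0.0571, and these 15 pairs and the pair of Mars and Mars2 gave that value, out of 17 pairs compared.

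Both exceptions were pairs in which the mitochondrial gene had not fallen. For methionine the ratio of Mars to Mars2 was lower in every T3 sample (0.78, 0.63, 1.16 and 0.85) than in any T0 sample (1.84, 1.58 and 1.86), a difference of −0.90. For leucine the ratio of Lars to Lars2 ran from −0.55 to −3.14 in T0 and from −0.94 to −2.60 in T3 and overlapped. Tyrosine was different, since both Yars and Yars2 rose and the ratio still rose by 1.34.

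**Figure D4:**
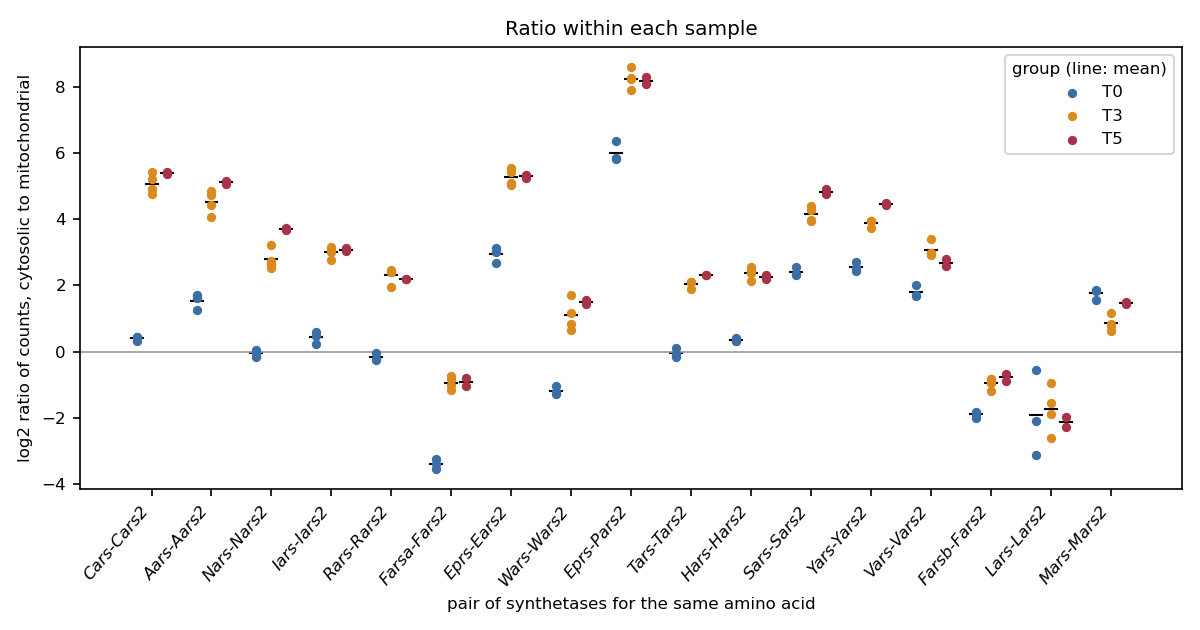
Log2 ratio of the counts of the cytosolic to the mitochondrial synthetase for the same amino acid (y axis) in each sample of T0, T3 and T5, for 17 pairs (x axis), with a line at each group mean. In 15 pairs the T3 points lie above all T0 points. Mars-Mars2 goes the other way and Lars-Lars2 overlaps.

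With the added 2 h no synthetase gene passed the test. None of the 36 was called in T5 against T3, against 2.17% of all genes, of which 1.28% were called higher and 0.888% lower. By edgeR 6 of the 36 genes had an unadjusted p under 0.05, and by DESeq2 also 0 were called and 6 had such a p. The median log2 fold change was −0.08 for the cytosolic and −0.12 for the mitochondrial genes, against 0.05 over all genes. Sars came closest, from 45.4, 51.3, 46.5 and 53.6 CPM in T3 to 82.3 and 94.1 CPM in T5 (0.84 ± 0.22, adjusted p = 0.0502), and both T5 samples were above all T3 samples. It was called in 6 of 15 alternative analyses, among them the one with the T5 libraries as 4 samples (adjusted p = 0.00341), and its adjusted p over all of them ran from 0.00105 to 0.815.

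Nars had 198 and 205 CPM in T5 (0.62 ± 0.24 against T3, adjusted p = 0.244), Gars 217 and 215 CPM (0.57 ± 0.25, adjusted p = 0.333) and Aars 172 and 172 CPM (0.44 ± 0.21, adjusted p = 0.389). Both T5 samples lay above all T3 samples in these 3 genes. Dars (38.0 and 35.0 CPM, −0.55 ± 0.25, adjusted p = 0.355) and Wars2 (22.6 and 22.2 CPM, −0.71 ± 0.26, adjusted p = 0.208) lay below all T3 samples. When T3 and T5 alone were fitted, Sars, Nars, Gars, Aars and Wars2 were called, with adjusted p of 0.00105 to 0.0493, in a fit that called 9.51% of all genes. Over the cytosolic genes the 2 summed T5 samples lay wholly above T3 in 7 and wholly below in 6. Over the mitochondrial genes they did so in 1 and 6, against 19.3% and 18.9% of all genes. With 2 samples against 4 such a split is common, as those shares show. Summing also hides spread between libraries, since Aars had 194, 154, 163 and 181 CPM in the 4 T5 libraries.

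Against T0, the cells of T5 had 12 cytosolic genes higher and 2 lower (Dars and Vars) and 0 mitochondrial genes higher and 12 lower. Among all genes 13.2% were called higher and 22.5% lower. This comparison shares its T0 samples with that of T3 and so is not separate evidence. The median log2 fold change was 0.87 for the cytosolic and −1.41 for the mitochondrial genes, against 0.18 over all genes. Cars (2.95 ± 0.26), Aars (2.72 ± 0.23), Yars (2.499 ± 0.25), Nars (2.34 ± 0.26) and Gars (2.22 ± 0.27) stood furthest above T0. Sars, not called in T3, was called here (1.32 ± 0.24, adjusted p = 0.00013), while Eprs (0.55, adjusted p = 0.149) and Kars (0.20, adjusted p = 0.537) were called in T3 but not here. Outside the complex 10 of 12 genes were called higher in T5 than in T0, and within it 2 of 8. By sign alone 10 of 12 and 5 of 8 had a positive log2 fold change. Among the mitochondrial genes Cars2 (−2.04), Vars2 (−1.92), Ears2 (−1.75) and Wars2 (−1.73) stood lowest.

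The amino acid response genes, targets of ATF4 or genes of amino acid synthesis, also rose after isolation, and most of them rose further with the added 2 h. In T3 against T0, 9 of 10 rose and none fell (Shmt2 was not called), with a median log2 fold change of 2.03. Sesn2, an mTORC1 inhibitor made when amino acids run short, had 2.21 to 2.59 CPM in T0, 22.5 to 31.9 CPM in T3 and 60.1 and 65.8 CPM in T5. Mthfd2, of mitochondrial folate metabolism, had 3.01 to 4.57, 37.1 to 45.0, and 73.4 and 76.1 CPM. Chac1, which degrades glutathione, had 0.532 to 0.782, 4.18 to 14.4, and 42.0 and 44.9 CPM. In T5 against T3, 7 of the 10 rose (Asns, Chac1, Trib3, Sesn2, Psat1, Ddit3 and Mthfd2), by log2 fold changes of 0.89 to 2.23, and Asns, asparagine synthetase, rose by 1.63 ± 0.25 (adjusted p = 0.000393). Atf4 itself rose in T3 (2.41 ± 0.23, from 40.1 to 64.3 CPM in T0 to 260 to 314 CPM) but not in T5 against T3 (−0.21, adjusted p = 0.717).

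**Figure D5:**
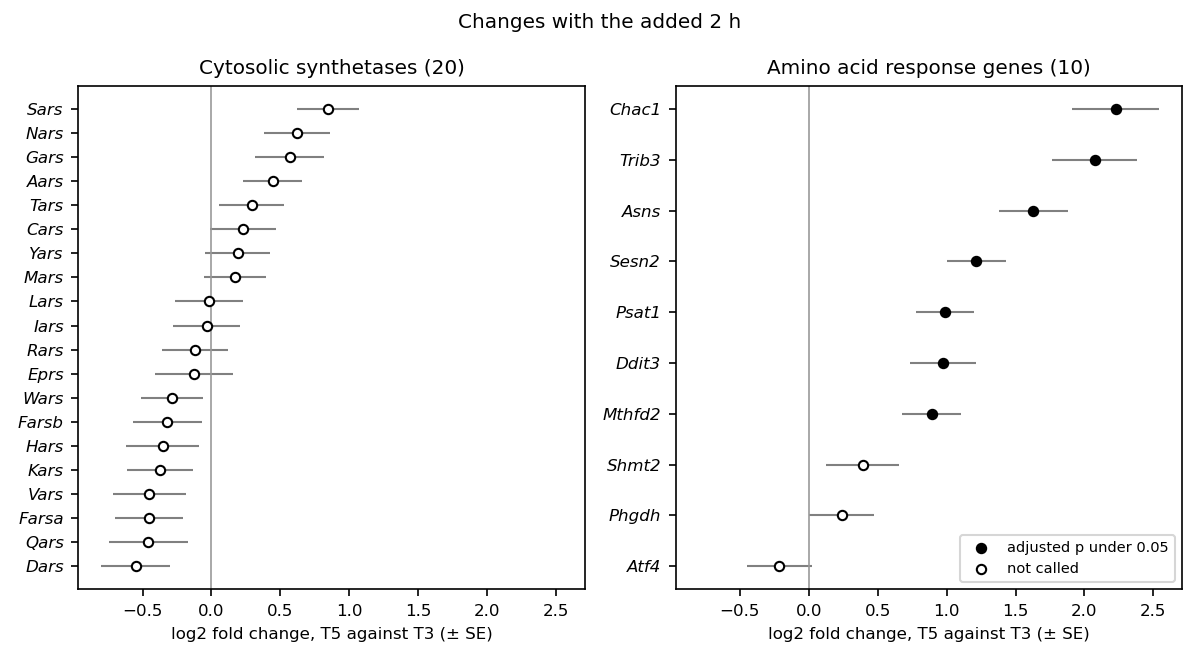
Log2 fold change of T5 against T3 (x axis, ± SE) for the 20 cytosolic synthetases and the 10 amino acid response genes (y axis), with filled points for genes called at an adjusted p under 0.05. Filled points are 0 of 20 on the left, where Sars is highest at 0.84, and 7 of 10 on the right, up to 2.23 for Chac1.

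The partners of the synthetases were mixed. Of the 3 scaffold genes of the multi-synthetase complex, Aimp2 (0.66 ± 0.24, adjusted p = 0.0291) and Eef1e1 (0.96 ± 0.22, adjusted p = 0.00123) rose in T3 and Aimp1 fell (−0.85 ± 0.21, adjusted p = 0.00179). Of the 5 genes of elongation factor 1, which carries charged transfer RNA to the ribosome, Eef1g (1.09 ± 0.22) and Eef1a2 (1.73 ± 0.29, from 0.411 to 0.584 CPM in T0 to 1.30 to 2.20 CPM in T3) rose and 3 were not called. Xpot, the exporter of transfer RNA from the nucleus, rose by 1.21 ± 0.22, from 31.99 to 54.1 CPM to 93.8 to 121 CPM. Of the 11 genes of transfer RNA export, end maturation and editing 3 rose and 6 fell in T3. The lowest of them were Dtd1 (−2.25 ± 0.20), which removes wrongly attached D-amino acids, Dtd2 (−2.05 ± 0.22) and Elac1 (−1.76 ± 0.20), which processes transfer RNA ends. Of 13 RNA polymerase III genes, which transcribe transfer RNA, 4 rose and 5 fell. Bdp1 (1.33 ± 0.23) and Polr3e (1.32 ± 0.21) rose and Polr3k (−1.73 ± 0.23) fell.

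The other mitochondrial genes of the pathway fell or were not called, with 1 exception. Among the other genes of mitochondrial aminoacylation Gatb (−1.81 ± 0.21), a subunit of the amidotransferase that makes glutaminyl-tRNA, and Mtfmt (−1.57 ± 0.21), which formylates the initiator methionine, fell. Of the 9 mitochondrial translation factors 4 fell (Mtif3 −2.09, Gfm2 −1.91, Mtif2 −1.55 and Mtrf1 −1.35), and Tsfm, an elongation factor, rose (0.53 ± 0.21, adjusted p = 0.0482). Of the 4 genes for the charging of selenocysteine transfer RNA and its use, Eefsec fell (−1.49 ± 0.19). In T5 against T3 no gene of these pathway lists was called higher, and 2 were called lower, Aarsd1 (−1.07, adjusted p = 0.029) and Polr3g (−0.86, adjusted p = 0.049).

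Markers of other cells also differed between the groups. In T3 against T0, 8 of 10 myofibre markers rose, at summed levels of 65.2 to 74.4 CPM in T0, 122 to 184 CPM in T3 and 109 to 112 CPM in T5. Of 9 endothelial markers 3 rose (226 to 273, 354 to 453 and 237 to 241 CPM). Of 8 monocyte and macrophage markers 4 rose (25.3 to 52.4, 40.1 to 60.0 and 42.9 to 51.0 CPM). The fibroblast markers summed to 124 to 190 CPM in T0 and 113 to 174 CPM in T3, and 2 of 9 rose and 1 fell. Those of pericytes and smooth muscle summed to 103 to 188 CPM and 94.9 to 176 CPM, and 1 of 6 rose and 2 fell. No listed marker was at 0 in any sample. The muscle stem cell markers, of which 2 of 10 rose and 5 fell, summed to 5907 to 8638 CPM in T0, 2634 to 3257 CPM in T3 and 1876 to 1945 CPM in T5, and Pax7 alone made up 3137 to 4440 CPM of the T0 sums. The part of other cells in the synthetase changes was not tested.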

How the data were processed

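RNA sequencing counts of muscle stem cells in 3 groups (T0, T3 and T5) were re-analysed. The authors deposited raw read counts per gene for 11 libraries. Per the submitters' processing notes, featureCounts 1.4.6-p3, STAR 2.5.0a, DESeq2 1.12.3 and R 3.3.1 were used with build GRCm38, and per the labels' protocols the libraries were stranded total RNA, read as 65-bp single ends from RNA of fixed cells. The annotation release, strand setting and filters are not given in the sources used here. GENCODE vM21 (GRCm38) supplied coordinates, and 360 of 48709 gene IDs had no entry in it.

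Columns were assigned to groups by name. T0 and T3 titles carry letters and the columns numbers, with no key between them, so replicates are called by column number. T5 libraries were summed by letter. Differential expression used the two-sided quasi-likelihood F test of edgeR 4.0.16 in R 4.3.3, with TMM scaling, filterByExpr and all 3 groups in 1 fit, and p-values were adjusted by Benjamini-Hochberg over the 31999 genes that passed. Each standard error was taken as the log2 fold change over the root of F. CPM uses TMM-corrected library sizes. Log2 ratios of pairs were taken from counts plus 0.5. Numbers of replicates, not depth, limit the precision, with 49078859 or more counts per library. The procedure was tested on simulated counts in which equal numbers of genes were raised and lowered. That setting does not cover changes that are unequal in direction, as the calls were here.

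Values in every sample are given for genes called in T3 against T0 with an absolute log2 fold change of at least 1, and for the 3 of each class with the largest adjusted p or a direction against their class, while others are given by range. Up to 3 genes with the smallest p are named in each pathway list, along with others singled out after their values were seen. Alternatives were other scaling (relative log expression or upper quartile), no filter, 4 T5 libraries as 4 samples, only the groups compared, a replicate block, DESeq2 1.42.0, a pseudocount of 5 for the ratios, and each sample left out. The genes, lists and tests were chosen with earlier results of these data known. Promoter windows were those of RefSeq on GRCm38.p6. Of the pathway lists 1 gene, and of the promoter matches 1 site, are left out of the text.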

Additional observations from a re-analysis of the deposited data

Results flagged for a closer look

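Cars2 in T3 replicate 1 stood apart from the other samples of its group, at 5.78 CPM against 7.39 to 7.65 CPM. The gap was 0.859 of the range of the group, above Dixon's critical value for 4 samples. Of 36 groups tested, 1 for each gene in T3, this was the single one to stand out, and chance gives about 1 in 20. The fall of Cars2 from T0 does not rest on that sample, since the other T3 samples also lay below all T0 samples.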

How the results depend on the processing

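No gene called in T3 against T0 or T5 against T0 changed its sign under any alternative. In T3 against T0 the number of cytosolic genes called lower was 1 in place of 2 with relative log expression or upper quartile factors, with only the 2 groups compared, with the replicate block and with DESeq2, and 1 to 3 with a sample left out. The mitochondrial genes called higher were 2 in place of 1 with upper quartile factors and with 4 T5 libraries, and 1 to 2 with a sample left out. In T5 against T3 the cytosolic genes called higher were 2 in place of 0 with upper quartile factors and with 4 T5 libraries, 1 without the filter, 4 with only the 2 groups, and 0 to 2 with a sample left out. The mitochondrial genes called lower there were 1 with 4 T5 libraries and with only the 2 groups, and 0 to 1 with a sample left out. In T5 against T0 the cytosolic genes called lower were 1 (without T5 replicate A) to 4 (without T0 replicate 3), and the mitochondrial genes called higher were 2 in place of 0 with upper quartile factors, 1 with 4 T5 libraries, 1 with only the 2 groups, and 0 to 1 with a sample left out. The cause was not tested. Genes near 0 reversed: Farsb was 0.25 with upper quartile factors and −0.30 to 0.045 with a sample left out, Qars was −0.037 with 4 T5 libraries, −0.0034 with DESeq2 and −0.26 to 0.23 with a sample left out, Lars2 was −0.13 to 0.59 and the ratio of Lars to Lars2 was −0.42 to 0.87. Without T0 replicate 3 the calls over all genes rose from 4807 higher and 7332 lower to 7080 and 8875.

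The replicate block could be fitted for T0 and T3 alone, by column number, since the T5 columns carry letters. In their deviations from the group mean, samples with the same number correlated at −0.17, 0.21 and 0.22. Samples with different numbers were not compared in this way, so these values cannot tell whether a shared number means a shared origin. With the replicate block 12 cytosolic genes were called higher and 1 lower, and 1 mitochondrial gene higher and 11 lower, with Aars2, Kars, Tars2 and Vars no longer called.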
